A study of Rattus norvegicus with 12 samples.

Results

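Osteoclasts are the multinucleated cells that dissolve bone, and 10 genes of their resorption and fusion machinery were followed in rat skull bone 6 h after it was cut. They were Ctsk, Acp5, Car2, Clcn7, Tcirg1, Atp6v0d2, Dcstamp, Calcr, Oscar and Nfatc1, each found by its symbol on the array, and all 10 passed the filter on dim probes that left 22984 genes of the whole array. They are represented by 13 probes, because Calcr, Nfatc1 and Tcirg1 each have a further one, and the probe with the highest mean signal stands for its gene. Ctsk and Nfatc1 rose and Car2 fell in laser-ablated and in bur-drilled bone against control bone, while the other 7 genes did not pass the test. No gene of the 10 passed between laser and bur. Changes against control were common over the whole array, so 3 genes out of 10 does not set this group apart.

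Osteoclasts arise by fusion of precursors of the monocyte lineage. M-CSF keeps these precursors alive, RANKL drives them through its receptor RANK towards the transcription factor NFATc1, and osteoprotegerin is a soluble decoy that captures RANKL. The mature cell seals off a patch of bone, acidifies it with a proton pump and a chloride channel fed by carbonic anhydrase, and digests the collagen with cathepsin K. Several of the genes are also active elsewhere, and carbonic anhydrase 2 is abundant in red blood cells.

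The samples were calvarial bone of rats 10 weeks old, with 4 samples in each of 3 groups and 1 array per sample. In the laser group an 8 by 3 mm rectangle of bone was removed by Er:YAG laser, a source of infrared light that water absorbs, in 3 strokes with an output of 127 mJ per pulse at 20 Hz. In the bur group a rotating bur cut an equal rectangle. The control group had its periosteum removed with no cut into the bone, so all 3 groups were operated on and the periosteum was lost in the controls too. No source used here says which cells the pieces of bone held or whether each sample was a different rat, and p-values cover only the spread seen among the samples, which may be technical.

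Every level below is the log2 signal of a probe minus the 75th percentile of its array, so 0 is the signal of a probe at that percentile, and levels of different probes cannot be set against each other. A gene passed when its adjusted p in limma, with Benjamini-Hochberg adjustment over all 22984 genes, was under 0.05. The share of spots well above background was 67.8% to 73.7% per array, with 0 saturated spots. With 4 arrays a group, precision is limited by their number. Controls shared 1 slide, and the 8 treated arrays filled 2 further slides with 2 laser and 2 bur arrays on each. Spike-in spots had a raw log2 signal 3.21 higher on the treated slides than on the control slide. In every comparison with control, treatment and slide therefore cannot be told apart. By the probes used, all 7 measured markers of bone-forming cells rose in laser bone and 6 of 7 in bur bone, where the last did not pass. Of 2 Alpl probes 1 passed in each comparison, and the other gave 0.23 for laser and 0.46 for bur against control. Both Col1a1 probes passed as higher in each. Of all genes 32.2% were called higher in laser bone and 32.7% in bur bone. In bulk tissue, fewer cells of a type and less RNA per cell cannot be told apart.

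The first comparison, laser against control, asks what had changed 6 h after ablation. Of the 10 genes 2 rose, Ctsk and Nfatc1, and 1 fell, Car2, against 49.8% of all genes that passed in this comparison (32.2% higher and 17.6% lower). The median log2 fold change of the 10 genes was 0.02, beside 0.21 for all genes. With quantile normalization, which lowers the median of all genes to 0.09, the split was 1 higher and 2 lower, since Nfatc1 no longer passed and Tcirg1 passed as lower. In bur-drilled against control bone, Ctsk and Nfatc1 again rose and Car2 fell, against 51.0% of all genes (32.7% higher and 18.3% lower). The median of the 10 genes was 0.14, beside 0.23 for all genes, which quantile normalization lowers to 0.11. Both comparisons use the same 4 control arrays, so they are not independent of each other.

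Ctsk encodes cathepsin K, the collagen-degrading protease that the osteoclast secretes onto bone. Its level was 6.25, 6.35, 6.32 and 6.56 on the laser arrays, 6.18, 6.22, 6.61 and 6.22 on the bur arrays, and 5.43, 5.01, 5.80 and 5.58 on the control arrays. Every treated array lay above every control array, and the laser and bur ranges overlapped. A difference without overlap was seen in 48.6% of all genes for laser against control and in 46.0% for bur against control. Ctsk rose by 0.92 on the log2 scale in laser bone (SE 0.17, limma adjusted p = 0.00176), a 1.89-fold difference. In bur bone it rose by 0.86 (SE 0.17, limma adjusted p = 0.00254), or 1.81-fold. Ctsk passed in both comparisons with control under all 20 other settings. In the authors' deposited table its log2 fold change was smaller, 0.54 for laser against control (adjusted p = 0.0305) and 0.64 for bur against control (adjusted p = 0.0145).

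The 250 bases upstream of the transcription start are shown for Ctsk, Acp5 and Clcn7, genes known as targets of the osteoclast transcription factor MITF. They show the letters that NFAT and MITF proteins recognise. Whether either protein acted on these genes in these samples was not tested. Capitals mark the NFAT core GGAAA and the E-boxes CACGTG and CATGTG, on either strand, so that TTTCC and CACATG are the same motifs read from the other strand. The sequences are those of RefSeq, build GRCr8, written 5′ to 3′ on the strand of the gene.
Ctsk, chr2:185747298-185747547, plus strand: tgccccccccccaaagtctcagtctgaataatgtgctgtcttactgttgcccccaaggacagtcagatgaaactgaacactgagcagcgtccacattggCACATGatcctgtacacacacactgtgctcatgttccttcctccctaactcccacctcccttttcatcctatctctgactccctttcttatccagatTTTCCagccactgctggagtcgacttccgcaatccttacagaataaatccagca
Acp5, first start site, chr8:28943930-28944179, minus strand: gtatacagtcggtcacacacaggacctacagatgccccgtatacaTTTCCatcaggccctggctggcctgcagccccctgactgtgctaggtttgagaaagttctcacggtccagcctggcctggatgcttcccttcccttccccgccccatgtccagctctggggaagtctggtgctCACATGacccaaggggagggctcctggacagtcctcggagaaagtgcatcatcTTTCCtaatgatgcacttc
Clcn7, chr10:14656011-14656260, plus strand: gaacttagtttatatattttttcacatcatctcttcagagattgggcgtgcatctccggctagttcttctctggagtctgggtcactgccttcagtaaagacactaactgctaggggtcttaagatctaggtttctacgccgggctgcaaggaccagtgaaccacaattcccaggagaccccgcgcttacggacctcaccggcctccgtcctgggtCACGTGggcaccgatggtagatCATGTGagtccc
Ctsk has 1 NFAT core and 1 E-box, Acp5 has 2 NFAT cores and 1 E-box at this start site, and Clcn7 has 2 E-boxes and no NFAT core. The second Acp5 start site has neither motif in its 250 bases. Among the other genes with a stretch, Oscar has 2 NFAT cores and no E-box, and Calcr and Tcirg1 have neither motif. The 3 genes shown are thus the only ones found with an E-box, so they cannot be set against the share of all start sites. Upstream stretches of the same length hold the NFAT core in 56.9% and an E-box of this kind in 17.1% of the 33469 start sites in the table. The AP-1 motif TGANTCA, found in 6.34% of them, is in none of the 7 stretches found for 6 of the 10 genes, and the GATA motif AGATAA, found in 10.3%, is in that of Tcirg1 only. These are matches of letters and say nothing about binding. Of the 3 genes shown, Ctsk passed and Acp5 and Clcn7 did not.

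Acp5 encodes tartrate-resistant acid phosphatase, the enzyme by which osteoclasts are stained. Its level was 5.46, 6.04, 6.36 and 6.74 in laser bone, 6.10, 5.86, 7.07 and 5.95 in bur bone, and 5.87, 5.70, 6.34 and 5.94 in control bone. The 3 groups overlapped, and the spread within laser and within bur bone was wider than any difference between the means. Acp5 differed by 0.19 between laser and control (95% interval -0.51 to 0.88, limma adjusted p = 0.636) and by 0.28 between bur and control (95% interval -0.41 to 0.98, limma adjusted p = 0.461). Its sign for laser against control turned under quantile normalization, to -0.14.

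**Figure D1:**
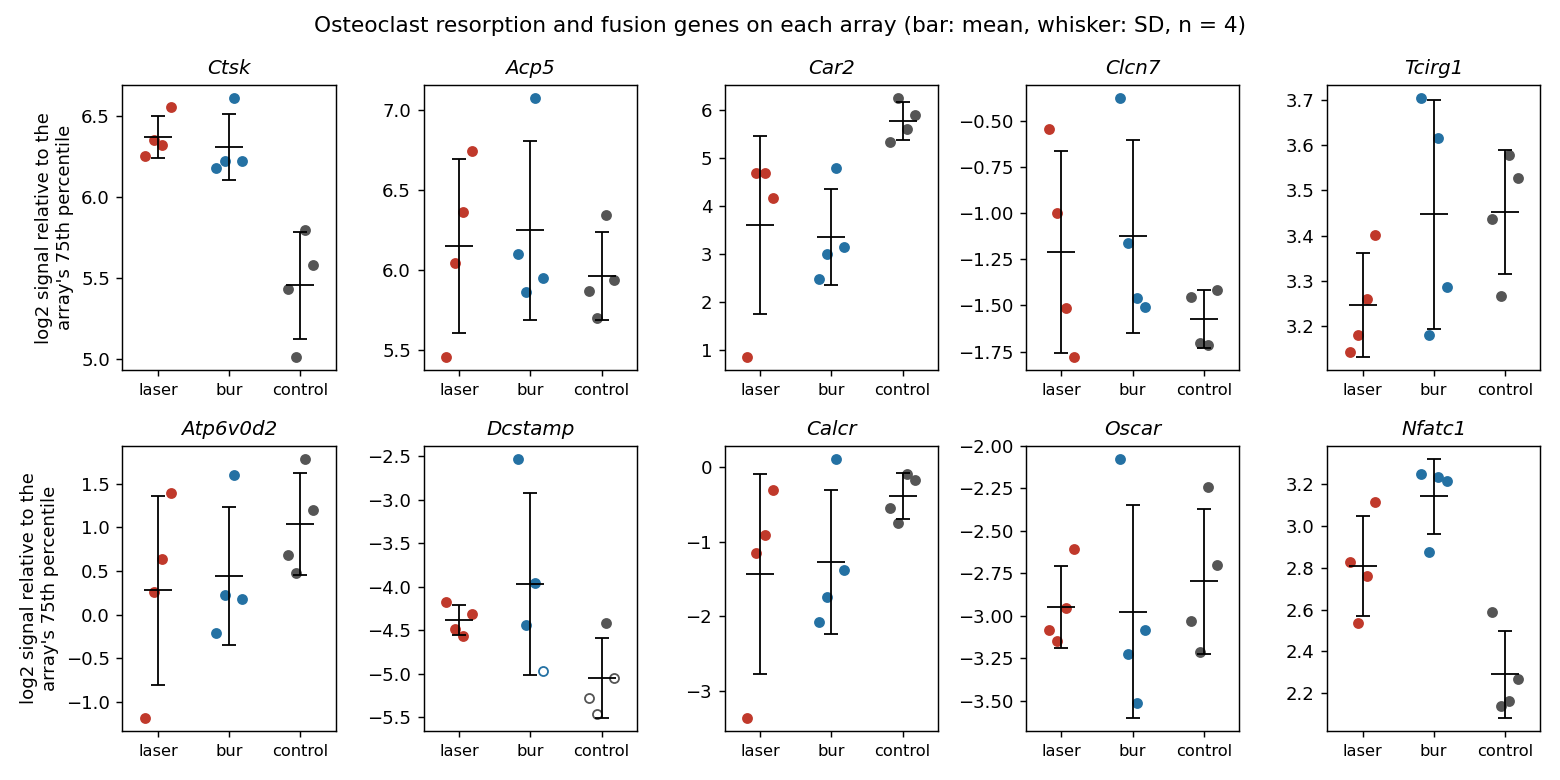
Log2 signal of the 10 genes relative to each array's 75th percentile, by group in each panel (laser, bur and control, 1 point per array, bar at the mean, whisker 1 SD, n = 4), with open points for arrays where the probe was not well above background; each panel has its own axis. Ctsk lies above 6 on all 8 treated arrays and below on all 4 control arrays, while Car2 lies lower on all treated arrays.

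Car2 encodes carbonic anhydrase 2, which supplies the protons for acid secretion in the osteoclast and is also a major protein of red blood cells. Its level was 0.85, 4.69, 4.69 and 4.18 in laser bone, 2.48, 2.99, 4.80 and 3.14 in bur bone, and 5.34, 6.25, 5.61 and 5.90 in control bone. All 8 treated arrays lay below all 4 control arrays, and laser replicate 1 lay far below the other laser arrays. Car2 fell by 2.17 on the log2 scale in laser bone (SE 0.79, limma adjusted p = 0.0402), a 4.51-fold difference, and by 2.42 in bur bone (SE 0.79, limma adjusted p = 0.0255), or 5.35-fold. Without laser replicate 1 the laser value was -1.26 and did not pass (adjusted p = 0.0546). It also missed the threshold with slide as a random block, at adjusted p = 0.0866 for laser and 0.0604 for bur, and it passed in 12 of 20 and 14 of 20 other settings. Leaving out any control array lost the laser call (adjusted p 0.0542 to 0.0921), and the bur call was lost without bur replicate 1, 2 or 4 or control replicate 2 or 4 (adjusted p 0.0520 to 0.0674).

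Erythroid markers moved with Car2. Of 8 such markers 7 fell and 0 rose in both comparisons with control. Of all genes 17.6% were called lower in laser bone and 18.3% in bur bone. Klf1, the erythroid transcription factor, fell by 2.65 in laser bone (SE 0.69) and by 2.75 in bur bone (SE 0.69), while Hbb, a haemoglobin chain, did not pass. The mean level of the 8 markers was -0.81, 2.74, 2.67 and 2.18 in laser bone, 0.91, 1.23, 2.92 and 1.30 in bur bone, and 3.86, 4.60, 3.94 and 4.09 in control bone. Their summed linear signal, in units of the array's 75th percentile, ranged from 32.3 to 287 in laser bone, from 87.9 to 273 in bur bone and from 417 to 579 in control bone. Laser replicate 1 was lowest of all arrays both for the markers and for Car2, and bur replicate 3 was the highest bur array for both. Among 13091 genes with an official symbol that were well above background on all 12 arrays, those whose level was most like that of Car2 were Epb42, a red cell membrane skeleton protein (Pearson r = 0.998), Cd52 (r = 0.997), Rhd, a blood group antigen (r = 0.996), Dyrk3 (r = 0.996) and Hemgn (r = 0.995). These values describe 12 arrays that share their group, slide and scan. Epb42 is one of the 8 markers. The part of erythroid cells in the Car2 result was not tested.

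**Figure D2:**
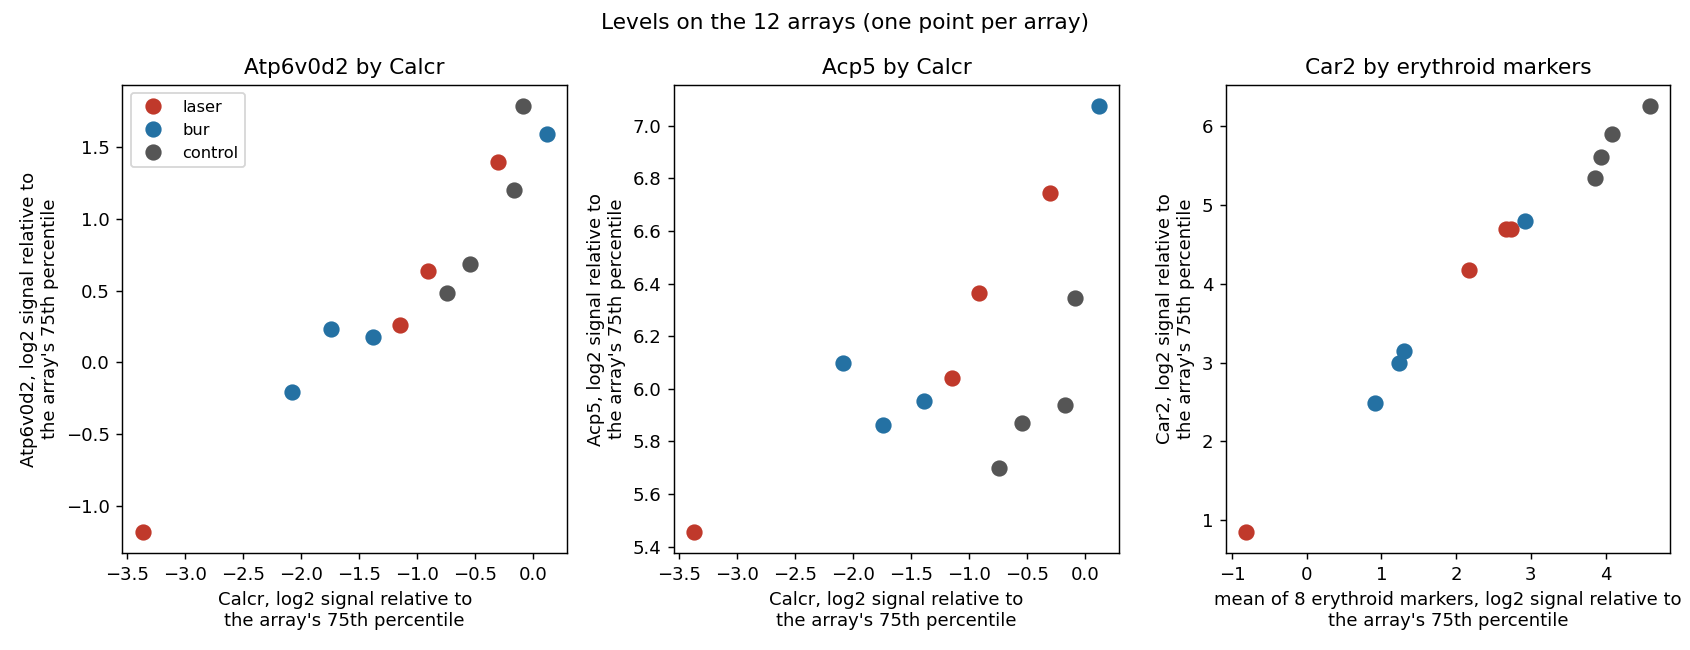
Levels on the 12 arrays as log2 signal relative to each array's 75th percentile, 1 point per array (laser red, bur blue, control grey). Atp6v0d2 (left panel) and Acp5 (middle panel) are plotted against Calcr, and Car2 (right panel) against the mean of 8 erythroid markers. Laser replicate 1, with -3.36 for Calcr and -0.81 for the erythroid mean, is the lowest point of each panel.

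Tcirg1 and Atp6v0d2 encode subunits of the membrane sector of the vacuolar proton pump, the a3 and d2 forms that osteoclasts favour, and Clcn7 encodes the chloride-proton exchanger that accompanies the pump. Tcirg1 had levels of 3.14, 3.18, 3.26 and 3.40 in laser bone, 3.70, 3.18, 3.62 and 3.29 in bur bone, and 3.44, 3.27, 3.58 and 3.53 in control bone. The groups overlapped, with differences of -0.21 for laser against control (limma adjusted p = 0.240) and -0.01 for bur against control (limma adjusted p = 0.976). For laser against control Tcirg1 passed as lower in 3 of 20 other settings, with -0.44 under quantile normalization, -0.47 with normexp and -0.52 on the authors' deposited values. Its further probe did not pass either (-0.11 for laser and 0.18 for bur against control).

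Clcn7 had levels of -0.55, -1.002, -1.52 and -1.78 in laser bone, -0.38, -1.16, -1.46 and -1.51 in bur bone, and -1.46, -1.70, -1.71 and -1.42 in control bone. The highest laser array and the highest bur array were both replicate 1, and both groups overlapped the controls. Differences were 0.36 for laser against control (limma adjusted p = 0.324) and 0.45 for bur against control (limma adjusted p = 0.223). Atp6v0d2, whose product is also needed for precursors to fuse in mice, had levels of -1.18, 0.26, 0.64 and 1.39 in laser bone, -0.21, 0.23, 1.59 and 0.17 in bur bone, and 0.68, 0.48, 1.79 and 1.20 in control bone. Its differences from control, -0.76 in laser bone (limma adjusted p = 0.259) and -0.59 in bur bone (limma adjusted p = 0.374), were smaller than the range within any of the groups.

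Dcstamp encodes a membrane protein required for the fusion of osteoclast precursors, and its probe was dim. It was well above background on 4 laser arrays, 3 bur arrays and 1 control array, so the filter kept it mainly through treated arrays. Levels were -4.18, -4.48, -4.56 and -4.31 in laser bone, -2.53, -4.44, -3.95 and -4.96 in bur bone, and -5.28, -5.46, -4.41 and -5.05 in control bone. Control replicate 3 reached into the laser and bur ranges, and bur replicate 1 stood highest. Dcstamp differed by 0.67 for laser against control (SE 0.43, limma adjusted p = 0.217) and by 1.08 for bur against control (SE 0.43, limma adjusted p = 0.0568). For bur against control it passed without bur replicate 4 (1.41, adjusted p = 0.0192) and without control replicate 3 (1.29, adjusted p = 0.0436). Bur replicate 4 was the lowest bur array and control replicate 3 the highest control array, so leaving out either widened the difference. For laser against control Dcstamp passed with only those groups in the fit (limma adjusted p = 0.0413). Given the filter and the dim control arrays, these passes lend no support to a rise.

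Calcr encodes the calcitonin receptor, through which calcitonin halts resorption, and Oscar encodes a co-stimulatory receptor of osteoclast precursors. Calcr had levels of -3.36, -1.15, -0.91 and -0.30 in laser bone, -2.08, -1.74, 0.11 and -1.38 in bur bone, and -0.54, -0.75, -0.09 and -0.17 in control bone. Laser replicate 4 and bur replicate 3 lay within or above the control range and the other treated arrays below it. Differences were -1.04 for laser against control (SE 0.62, limma adjusted p = 0.180) and -0.89 for bur against control (SE 0.62, limma adjusted p = 0.248). Its further probe did not pass the filter, since it was well above background only on bur replicate 3 and control replicate 3. Oscar had levels of -3.09, -3.15, -2.95 and -2.61 in laser bone, -2.08, -3.23, -3.52 and -3.08 in bur bone, and -3.03, -3.21, -2.24 and -2.70 in control bone. It differed from control by -0.15 in laser bone (limma adjusted p = 0.696) and by -0.18 in bur bone (limma adjusted p = 0.635), with overlapping groups.

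Acp5, Calcr and Atp6v0d2 shared their highest array in every group. Each of them was highest on laser replicate 4, on bur replicate 3 and on control replicate 3, and Tcirg1 and Ctsk were highest on laser replicate 4 and control replicate 3 too. Calcr and Atp6v0d2 were both lowest on laser replicate 1, on bur replicate 1 and on control replicate 2, while Acp5 differed from them in bur bone, where it was lowest on bur replicate 2. Calcr spanned 3.06 on the log2 scale among the laser arrays, Atp6v0d2 spanned 2.58 and Acp5 spanned 1.29, while Ctsk spanned 0.30. Over the 10 genes, laser replicate 4 was the highest laser array for 7, laser replicate 1 the lowest for 6, control replicate 3 the highest control array for 7 and control replicate 2 the lowest for 8. The erythroid mean was likewise lowest in its group on laser replicate 1 and highest on bur replicate 3, but control replicate 2, low for the osteoclast genes, had its highest control value.

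Nfatc1 encodes the transcription factor that RANKL induces and that switches on many of the other genes. Its level was 2.83, 2.54, 2.76 and 3.11 in laser bone, 3.25, 2.87, 3.23 and 3.21 in bur bone, and 2.59, 2.14, 2.16 and 2.27 in control bone. All bur arrays lay above all control arrays, whereas laser replicate 2 lay below control replicate 1. Nfatc1 rose by 0.52 in laser bone (SE 0.16, limma adjusted p = 0.0189), a 1.43-fold difference, and by 0.85 in bur bone (SE 0.16, limma adjusted p = 0.00162), or 1.81-fold. The bur call was kept under all 20 other settings and the laser call under 13 of 20. Without control replicate 2 or control replicate 3 the laser call was lost (limma adjusted p = 0.0535 and 0.0516). The laser call was also lost with quantile normalization (limma adjusted p = 0.0853), normexp (0.0646) and slide as a random block (0.0510). A limma refit of the authors' deposited values (0.0513) and a fit with treated slide 2 only (0.122) lost it too.

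The further Nfatc1 probe is shown because it reads another stretch of the transcript. It starts at position 2376 of the transcript, against 4039 for the probe used, and its 60 bases lie on the minus strand within chr18:77532427-77545603 of build rn4, the build of the array design, so that it crosses a junction between exons.
Nfatc1, further probe: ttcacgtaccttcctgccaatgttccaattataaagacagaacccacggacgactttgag
This probe read -0.97, -1.25, -2.22 and -2.01 in laser bone, -0.33, -1.18, -1.33 and -2.23 in bur bone, and -2.04, -2.63, -2.07 and -2.61 in control bone. Fitted over all probes, it passed for bur against control (1.07, SE 0.39, limma adjusted p = 0.0398) and not for laser against control (0.73, SE 0.39, limma adjusted p = 0.142). Both groups overlapped the controls on it. In the authors' deposited table, where Nfatc1 is given by this probe, its log2 fold changes were 0.50 for laser (adjusted p = 0.0171) and 0.76 for bur against control (adjusted p = 0.00259).

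Among the same 13091 genes, the levels most like that of Ctsk over the 12 arrays were those of Sulf1, a sulfatase of heparan sulfate (Pearson r = 0.964), Ppan (r = 0.958), Fam43a (r = 0.956), Mertk, a receptor of phagocytes (r = 0.955), and Wdr41 (r = 0.954). For Nfatc1 they were Ston2 (r = 0.960), Slc25a28 (r = 0.954), Odad4 (r = 0.952), Pik3ca (r = 0.945) and Poll (r = 0.944). These are descriptions over arrays that share group and slide.

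Laser-ablated and bur-drilled bone shared the 2 treated slides. Their comparison passed for 0 of the 10 genes by limma, where 0.00435% of all genes passed, a single gene, and by the authors' deposited table no gene of the 10 passed. By limma 0 of the 10 had an unadjusted p under 0.05 either. All 10 had overlapping groups, where 3.51% of all genes had none. Nfatc1 differed by -0.33 (95% interval -0.68 to 0.01, limma adjusted p = 0.781), lower in laser bone. The interval for Ctsk ran from -0.32 to 0.44 and that for Tcirg1 from -0.51 to 0.11. Those for Car2 (-1.49 to 1.99), Calcr (-1.53 to 1.21) and Atp6v0d2 (-1.37 to 1.03) were wider and do not exclude a difference of 2-fold in either direction.

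**Figure D3:**
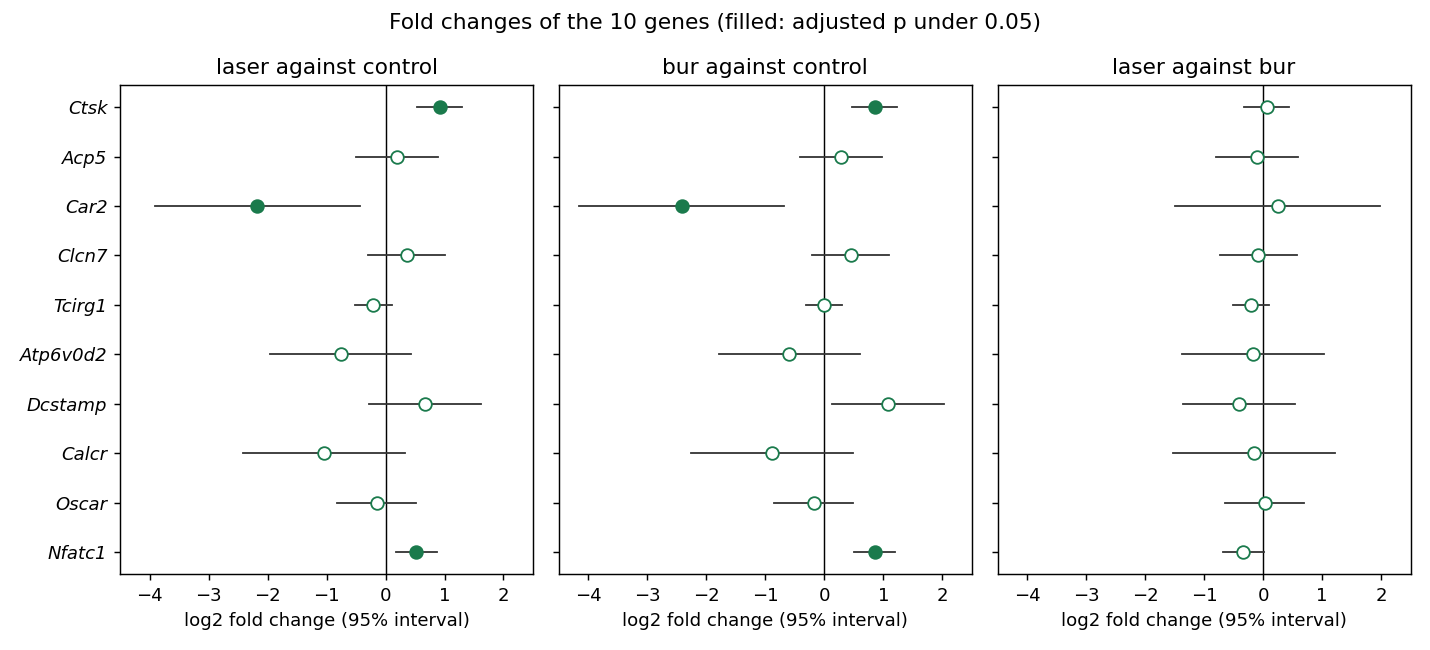
Log2 fold changes of the 10 genes for laser against control, bur against control and laser against bur, with 95% intervals from limma on 12 arrays and filled points for an adjusted p under 0.05. Ctsk, Car2 and Nfatc1 are filled in both comparisons with control, and no point is filled for laser against bur.

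The other genes of the osteoclast pathway were read from 5 lists, whose counts stand beside 49.8% of all genes called for laser and 51.0% for bur against control. Of the 18 genes of commitment and signalling, 2 rose and 8 fell in laser bone, and 2 rose and 10 fell in bur bone, with a median log2 fold change of -0.52 and -0.63. Mitf, the transcription factor named above, rose, with levels of 7.69, 7.88, 8.13 and 8.17 in laser bone, 8.10, 8.06, 8.31 and 7.67 in bur bone, and 7.26, 7.07, 6.93 and 6.58 in control bone. The rise was 1.01 for laser (SE 0.18, limma adjusted p = 0.00154) and 1.07 for bur (SE 0.18, limma adjusted p = 0.00115), and its further probe passed for bur only. Traf6, the adaptor that carries the RANK signal, fell by 1.02 in laser and by 0.97 in bur bone. Csf1r, the M-CSF receptor, fell by 0.77 in laser bone, where its levels were -0.47, -0.17, -0.46 and -0.42, and by 0.81 in bur bone, where they were -0.31, -0.72, -0.22 and -0.43, against 0.38, 0.34, 0.26 and 0.58 in control bone. Tnfrsf11a, which encodes RANK and was chosen after its values were seen, differed by -1.28 in laser bone (adjusted p = 0.0780) and fell by 1.63 in bur bone (SE 0.56, limma adjusted p = 0.0319). It passed in 5 of 18 other settings for laser and in 12 of 18 for bur, where the call was lost without bur replicate 1 or 2 and without control replicate 2 or 3, with values of -1.67 to -1.20. Over the 18 settings the Tnfrsf11a value ran from -1.73 to -0.22 for laser and from -2.65 to -0.25 for bur. With slide as a random block the bur count dropped to 1 higher and 6 lower. Several of these genes serve macrophages as well: of 9 measured markers of monocytes and macrophages 2 rose and 4 fell in laser bone, and 1 rose and 4 fell in bur bone. Those that rose were Lyz2, in laser bone only, and Aif1. Of 3 Lyz2 probes 1 passed as higher and 2 as lower in laser bone, and 0 and 2 in bur bone. Of 2 Aif1 probes 1 passed as higher and 0 as lower in each comparison with control. Both Itgam probes passed as lower in each. The summed signal of the 9 markers, in units of the array's 75th percentile, was 331 to 401 in laser bone, 222 to 376 in bur bone and 232 to 283 in control bone. Such a sum weights the brightest probes most. The mean log2 level of the same markers went the other way, with 2.55 ± 0.02 in laser bone, 2.51 ± 0.26 in bur bone and 2.75 ± 0.14 in control bone (SD, n = 4 each). Their part in the result was not tested.

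Of the 3 genes for the ligands and the decoy, 1 rose in both comparisons with control by the probes used. It was Tnfrsf11b, which encodes osteoprotegerin. Its levels were 2.32, 2.94, 3.53 and 3.93 in laser bone, 1.51, 2.19, 1.80 and 2.67 in bur bone, and 1.04, 0.81, 1.05 and 1.44 in control bone. Laser and bur arrays lay above all controls. It rose by 2.09 in laser bone (SE 0.34, limma adjusted p = 0.000863), a 4.27-fold difference. In bur bone it rose by 0.95 (SE 0.34, limma adjusted p = 0.0376), or 1.94-fold, a call that was kept in 9 of 20 other settings and lost without bur replicate 2 or 4 and without control replicate 1, 2 or 3 (adjusted p 0.0691 to 0.102). Its difference between laser and bur, 1.14 (95% interval 0.38 to 1.89), did not pass (limma adjusted p = 0.567). Tnfsf11, which encodes RANKL, differed from control by 0.37 in laser bone (adjusted p = 0.421) and by 0.78 in bur bone (adjusted p = 0.102). Csf1, which encodes M-CSF, differed by 0.22 in laser bone (adjusted p = 0.401) and by 0.17 in bur bone (adjusted p = 0.492) by the probe used, while its further probe passed as higher in both (0.52 in laser bone and 0.60 in bur bone).

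Of 9 measured genes of fusion and attachment, 3 rose and 2 fell in each comparison with control, with Ocstamp left out by the filter. That share, 5 of 9, is near the share of all genes called. Itgav, the widely expressed alpha chain of integrins that include the one anchoring the osteoclast, had levels of 4.42, 4.23, 4.34 and 4.41 in laser bone, 4.28, 4.16, 4.44 and 4.38 in bur bone, and 3.39, 3.01, 3.39 and 3.34 in control bone. It rose by 1.07 in laser bone (SE 0.12, limma adjusted p = 0.000163) and by 1.03 in bur bone (SE 0.12, limma adjusted p = 0.000224). Itgb3, the beta chain of the osteoclast's integrin, was chosen after its values were seen and went the other way. It fell by 2.08 in laser bone (SE 0.43, limma adjusted p = 0.00283), where both of its probes passed, and by 1.86 in bur bone (SE 0.43, limma adjusted p = 0.00508), where 1 of 2 passed, and it passed in all 20 other settings of both comparisons. Sh3pxd2a, an adaptor of podosomes, rose by 0.63 and by 0.76 in laser and bur bone, and Cd47, a surface protein that takes part in fusion, fell by 1.26 and by 1.42. In all, 2 of the 3 Sh3pxd2a probes passed in laser bone and all 3 in bur bone, while all 3 Cd47 probes passed in laser bone and 2 in bur bone. In bur bone the split was 2 higher and 3 lower under quantile normalization.

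The remaining 16 subunits of the vacuolar pump were mixed. In laser bone 3 rose and 6 fell, with a median of -0.13, and in bur bone 4 rose and 5 fell, with a median of -0.15. Under quantile normalization the split was 1 higher and 8 lower for laser and 2 higher and 7 lower for bur. The split also depended on the probe used. In laser bone Atp6v1a (-0.86), Atp6v1h (-0.34) and Atp6ap2 (as low as -1.21) passed as lower by further probes only. No further probe of these subunits passed as higher in laser bone. Atp6v0a1, another form of the a subunit, had levels of -1.52, -1.32, -1.32 and -1.26 in laser bone, -0.96, -1.02, -1.14 and -1.09 in bur bone, and -0.55, -0.11, -0.38 and -0.12 in control bone, with no overlap between treated and control arrays. It fell by 1.06 in laser bone (SE 0.13, limma adjusted p = 0.000189) and by 0.76 in bur bone (SE 0.13, limma adjusted p = 0.000939). Atp6v0b and Atp6v1b2, a membrane and a cytosolic subunit, fell by 0.80 and by 1.39 in laser bone and by 0.82 and by 1.21 in bur bone.

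Of 8 other resorption genes 2 rose and 1 fell in both comparisons with control, while under quantile normalization 2 rose and 5 fell for laser. This split also depended on the probe used. By further probes only, Plekhm1 passed as higher in both comparisons (0.71 in laser and 0.83 in bur bone). Snx10 passed as lower in both by further probes only (as low as -0.76 in laser and -0.85 in bur bone). Mmp9, gelatinase B, which osteoclasts and neutrophils make, had levels of -0.55, 0.48, 0.24 and 0.85 in laser bone, 0.15, -0.01, 1.32 and -0.17 in bur bone, and 1.59, 1.84, 1.92 and 1.74 in control bone. It fell by 1.52 in laser bone (SE 0.34, limma adjusted p = 0.00459) and by 1.45 in bur bone (SE 0.34, limma adjusted p = 0.00578). Mmp14, a membrane-bound collagenase, rose by 0.84 in laser bone (SE 0.19, limma adjusted p = 0.00504) and by 1.23 in bur bone (SE 0.19, limma adjusted p = 0.000727). Slc4a2, the chloride-bicarbonate exchanger of the osteoclast's outer membrane, rose by 1.89 in laser bone, from 3 arrays because laser replicate 1 was marked as an outlier, and by 1.67 in bur bone. For laser against bur 0 genes of the 5 lists passed by limma. In each list the gene with the smallest p had a difference of at most 1.14 in size, namely that of Tnfrsf11b, followed by Trem2, a receptor of myeloid cells, with -0.55 (limma adjusted p = 0.608), Cd9 with 0.45, Atp6v1e1 with -0.36 and Rab7a with 0.31.

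**Figure D4:**
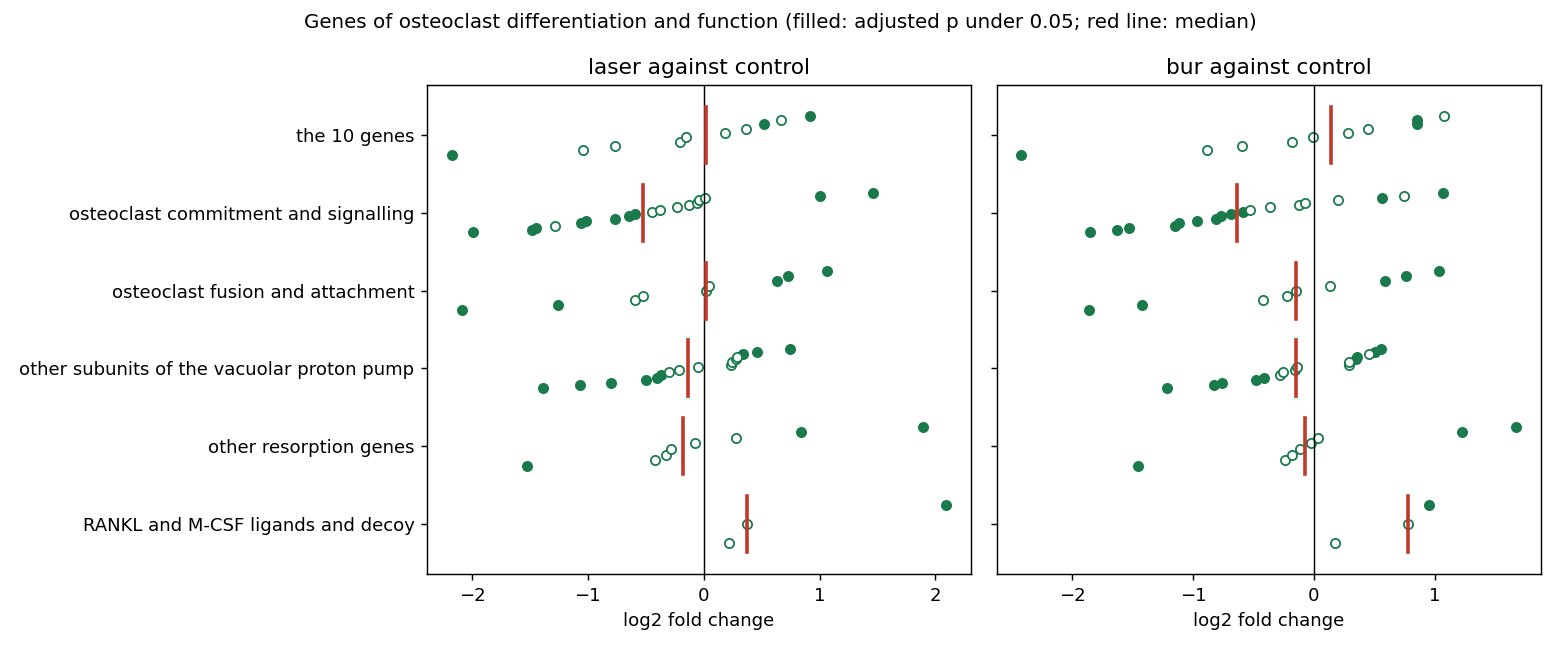
Log2 fold changes of the 10 genes and of the measured genes of the 5 lists for laser against control (left) and bur against control (right), 1 point per gene, filled for an adjusted p under 0.05, with a red line at the median. The commitment and signalling genes have their median at -0.52 in laser bone and -0.63 in bur bone.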

How the data were processed

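Each array file holds the spot intensity that the authors deposited, from which the scanner software had subtracted the background. Per the submitters' processing notes this was Agilent Feature Extraction, in version 11.0.1.1. The authors also deposited log2 normalized values and, for each comparison, a log2 fold change with its p-value and adjusted p-value per probe; the model behind them is not known here. From the intensities, control spots and spots marked as outliers were left out, log2 signals were averaged per probe (45598 probes), and the array's 75th percentile was taken off. Probes well above background on at least 4 of 12 arrays were kept (30126), and the probe with the highest mean stood for each of 22984 genes. Accessions in a RefSeq table (GRCr8) named 21184 probes (46.5%), and the others kept the files' names. All 12 arrays were fitted at once in R 4.3.3 with limma 3.58.1 (functions lmFit and eBayes), two-sided. The script was tested on simulated data.

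The members and lists were chosen with earlier results of these data known. Named from each list are up to 3 genes with the smallest adjusted p among those that passed, or the one with the smallest p where none passed. For Ctsk, Nfatc1 and Car2, 5 genes of like level are named. Alternatives were quantile normalization, another percentile, normexp with offset 50, the authors' values, other filters, the mean of a gene's probes, a fit of only 2 groups, replicate or slide as a block and leaving out each array. Fits with the arrays of 1 treated slide were added after seeing the data.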

Additional observations from a re-analysis of the deposited data

Results flagged for a closer look

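Of 63 groups of 4 arrays examined, 4 held a highest or lowest array set far apart from the others, and chance sets apart about 1 in 20 groups. Car2 had a level of 0.85 on laser replicate 1, against 4.18 to 4.69 on the other laser arrays. The mean of the erythroid markers was -0.81 on that array, against 2.18 to 2.74 on the other laser arrays. Ctsk had 6.61 on bur replicate 3, against 6.18 to 6.22 on the other bur arrays. Nfatc1 had 2.87 on bur replicate 2, against 3.21 to 3.25 on the other bur arrays.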

How the results depend on the processing

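Slide and treatment cannot be told apart against control. With slide as a block the number of the 10 genes called for laser against control fell to 1, and leaving out 1 array gave 1 to 3, with 1 without control replicate 2 or control replicate 3. For bur against control leaving out 1 array gave 2 to 4. On treated slide 2 only, which holds replicates 1 and 2, the bur count was 5. For laser against bur it was 0 under every setting run. The replicate block left the counts at 3, 3 and 0. Samples of laser and bur with the same number had deviations from the group means that correlated at 0.58, 0.05, 0.53 and 0.40, and 3 of 4 laser arrays correlated best with the bur array of their own number, a hint from the data that the labels do not state. Laser and bur arrays with the same number also shared a slide. With the controls, which lay on another slide, same-number correlations were 0.39, 0.09, 0.14 and 0.11 for laser. For bur they were 0.26, 0.10, 0.10 and 0.20. Again 3 of 4 laser and 3 of 4 bur arrays correlated best with the control of their own number. As 1 correlation between laser and bur was near 0, the numbers were not taken to pair the samples. The cause of these shifts was not tested.

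List counts also moved. Other resorption genes for laser against control numbered 7 under quantile normalization, 5 with a percentile taken over probes measured on all arrays and 5 with normexp. Commitment genes for bur against control numbered 7 with slide as a block and 7 on treated slide 1 only. Pump subunits for laser against control numbered 4 on treated slide 1 only. The ligands and decoy for bur against control gave 0 with that percentile, normexp, the authors' values, no filter, slide as a block and treated slide 2 only, 2 with the replicate block, and 0 to 1 on leaving out 1 array.

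Signs turned only for genes that had not passed. For laser against control Acp5 gave -0.14 (quantile), -0.15 (normexp), -0.17 (authors' values) and -0.21 (slide 2 only), Oscar 0.017 and Clcn7 -0.075 on slide 1 only. For bur against control Tcirg1 gave 0.087 with the mean of its probes and Oscar 0.15 on slide 2 only. For laser against bur Ctsk gave -0.041 (quantile), -0.050 (normexp) and -0.10 (authors' values), Clcn7 0.10 (authors' values), Oscar -0.46 on slide 2 only, and Acp5 0.040, Calcr 0.028, Dcstamp 0.020 and Atp6v0d2 0.13 on slide 1 only. On leaving out 1 array the ranges for laser against control were -0.0095 to 0.42 for Acp5 and -0.29 to 0.034 for Oscar, and for bur against control -0.091 to 0.083 for Tcirg1 and -0.48 to 0.0069 for Oscar. For laser against bur they were -0.29 to 0.18 for Acp5, -0.53 to 0.49 for Calcr, -0.54 to 0.32 for Atp6v0d2, -0.12 to 1.16 for Car2, -0.31 to 0.17 for Clcn7, -0.0014 to 0.16 for Ctsk, -0.15 to 0.33 for Oscar and -0.74 to 0.069 for Dcstamp. Dim probes such as that of Dcstamp are limited by signal over background.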
